A study of Homo sapiens with 16 samples.

Results

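The 9 genes described here belong to the epidermal growth factor (EGF) receptor system and were followed through the RNA-seq libraries of 2 papillary thyroid carcinoma cell lines, TPC1 and K1, treated with inhibitors of 2 repressors of p53. They were the ligands AREG, EREG, HBEGF, TGFA and BTC, the receptors EGFR, ERBB2 and ERBB3, and ERRFI1, an inhibitor that binds the kinase domain of the receptors. These 9 of the 25369 genes in the count table were picked by name as a family. The family was taken up because AREG had shown a large interaction of the drugs in TPC1, so the TPC1 values of AREG are given below as a description with no test, and all counts of changed genes are over the other 8.

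EGF family ligands are made as membrane-anchored precursors, and metalloproteases such as ADAM17 shed them from the cell surface. The shed ligands bind receptor tyrosine kinases of the ErbB family, which pair with each other and signal through the RAS and ERK cascade, among others, to growth and survival. AREG, TGFA and EGF bind EGFR, whereas HBEGF, EREG and BTC can bind both EGFR and ERBB4. ERBB2 has no known ligand of its own and serves as a partner, and ERBB3 binds neuregulins and has little kinase activity. ERRFI1 (also called MIG6) is itself switched on by growth factor signalling and restrains the receptors. In papillary thyroid carcinoma the same cascade is often active through changes in RET or BRAF.

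Both lines carry wild-type p53. Each line received 4 treatments for 24 h: the vehicle at 0.2% DMSO, 10 µM nutlin-3a (nutlin, an inhibitor of MDM2, which holds p53 down and marks it for degradation), 25 µM GSK2830371 (an inhibitor of the phosphatase PPM1D), or both drugs at these doses (the combination). There were 2 libraries for each line and treatment, 16 in all. Each line is a single established culture, TPC1 in RPMI medium and K1 in DMEM, so that a difference between the lines cannot be told apart from the medium. The study describes its replicates as independently prepared, while the sample descriptions give only a number. With 2 libraries a group, the p-values rest on the spread within groups, shared over all groups of a fit and drawn toward that of other genes. The table numbers the TPC1 libraries of each treatment 1 and 3 and those of K1 1 and 2, and these numbers name the libraries here.

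The 4 ligands AREG, EREG, HBEGF and BTC had their highest TPC1 levels in both libraries of the combination. This is a description, since AREG was picked by such values and the share of all genes with this pattern was not counted. The promoters of these 4 ligands are shown because of that pattern. Each runs from 250 bases before to 50 bases after the start site, 5′ to 3′ on the gene's own strand, as given by RefSeq for GRCh38.p14. AREG lies at chr4:74444886-74445185 on the plus strand, EREG at chr4:74364895-74365194 on the plus strand, HBEGF at chr5:140346554-140346853 on the minus strand and BTC at chr4:74794474-74794773 on the minus strand. Capitals mark matches to any of 4 short motifs searched on both strands: the cAMP response element (TGACGTCA), the AP-1 site (TGANTCA), the C/EBP-ATF composite element (TGATGNAA) and the TATA box (TATAAA), none of which overlapped another in these windows.
AREG promoter: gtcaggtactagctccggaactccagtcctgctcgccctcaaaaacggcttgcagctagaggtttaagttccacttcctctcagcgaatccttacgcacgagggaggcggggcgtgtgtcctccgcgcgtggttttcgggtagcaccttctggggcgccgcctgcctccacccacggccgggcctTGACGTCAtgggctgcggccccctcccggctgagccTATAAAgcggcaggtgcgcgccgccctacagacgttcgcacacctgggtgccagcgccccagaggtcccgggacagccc
EREG promoter: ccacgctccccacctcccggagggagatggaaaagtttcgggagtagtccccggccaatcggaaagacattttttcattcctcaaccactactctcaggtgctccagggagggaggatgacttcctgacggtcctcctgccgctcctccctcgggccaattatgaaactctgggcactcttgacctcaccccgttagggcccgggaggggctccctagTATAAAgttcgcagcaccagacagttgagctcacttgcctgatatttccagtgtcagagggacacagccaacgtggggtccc
HBEGF promoter: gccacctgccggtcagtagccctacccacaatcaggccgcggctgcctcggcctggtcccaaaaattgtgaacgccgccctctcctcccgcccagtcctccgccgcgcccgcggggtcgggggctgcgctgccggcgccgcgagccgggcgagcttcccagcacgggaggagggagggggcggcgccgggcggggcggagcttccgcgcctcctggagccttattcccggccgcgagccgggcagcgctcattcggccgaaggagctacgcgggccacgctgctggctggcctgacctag
BTC promoter: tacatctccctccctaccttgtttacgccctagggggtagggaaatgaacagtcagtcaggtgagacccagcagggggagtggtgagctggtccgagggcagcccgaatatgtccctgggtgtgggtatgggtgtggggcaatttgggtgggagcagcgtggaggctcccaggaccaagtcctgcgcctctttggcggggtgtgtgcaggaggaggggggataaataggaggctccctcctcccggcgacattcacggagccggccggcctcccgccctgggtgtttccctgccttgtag
The AREG promoter held the cAMP response element from −65 to −58 and a TATA box from −29 to −24, counted from the start site. The EREG promoter held a TATA box from −32 to −27, and in the HBEGF and BTC windows none of the 4 strings occurred. Of 35097 promoters of this length, 1.85% held the cAMP response element string, 7.71% the AP-1 string, 3.62% the composite string and 11.53% the TATA string. For 8 of the 9 genes a promoter was on hand (not for ERBB3), in 10 windows since EGFR and TGFA have more than 1 start. Of the other genes, the EGFR window at chr7:55109589-55109888 (GRCh38.p14) held AP-1 and TATA strings and the ERBB2 window an AP-1 string, while the windows of TGFA and ERRFI1 and the other EGFR window held none. These are letters in a window and say nothing of what binds there.

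On GRCh37, the build to which the reads were aligned, AREG (chr4:75310853-75320722), EREG (chr4:75230862-75254466) and BTC (chr4:75669969-75719733) lie close together on chromosome 4. HBEGF lies at chr5:139712428-139726188, TGFA at chr2:70674416-70781325, EGFR at chr7:55086710-55279321, ERBB2 at chr17:37844167-37886679, ERBB3 at chr12:56470583-56497289 and ERRFI1 at chr1:8064464-8086369. This build also holds AREGB (chr4:75480629-75490486), a second copy of AREG whose mRNA differed at 1 of 1234 aligned bases. Of the 1085 stretches of 150 bases in the AREG mRNA, 935 (86.2%) occurred unchanged in AREGB. Reads that fit both copies equally well get a low mapping quality, and reads of low mapping quality were removed before counting, so AREG counts are likely too low. The table has no row for AREGB. The AREG level is therefore not comparable with that of other genes, and its difference between lines cannot be told apart from which copy's base each line carries. Within a line the same limit applies to every library.

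Library totals ran from 30789887 to 76648552 counts in TPC1, where the library numbered 3 was the deeper in each treatment, and from 28888686 to 37161241 in K1. CDKN1A, a direct p53 target, rose with nutlin from 128 and 150 CPM (counts scaled to a library total of 1000000) to 6569 and 6689 in TPC1, and from 110 and 118 to 978 and 1046 in K1. The thyroid factors PAX8 (280 to 841 CPM) and FOXE1 (22.0 to 38.1 CPM) and the epithelial keratins KRT8 and KRT18 (114 to 832 CPM) were present in every library. Other thyroid follicular cell markers were low or absent: TSHR had no counts in any library, SLC5A5 and NKX2-1 did not exceed 0.64 CPM, and TG did not exceed 6.18 CPM. The leukocyte marker PTPRC and the endothelial marker PECAM1 stayed at or below 0.0628 CPM, the fibroblast markers COL1A2 and DCN at or below 0.64 CPM and COL1A1 at or below 5.23 CPM. The epithelial markers CDH1, EPCAM and KRT19 did not exceed 0.834 CPM, and KRT7 ran from 2.35 to 7.26 CPM. In bulk RNA, fewer cells of a kind and less RNA per cell cannot be told apart.

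In vehicle-treated cells EGFR and ERBB2 RNA differed by less than 1.5-fold between the lines, whereas the leading ligand was another one and ERRFI1 was lower in K1. Levels of different genes are compared as CPM per kb of transcript. In TPC1, ERRFI1 was highest (47.6 ± 0.670 CPM per kb, SD, n = 2), followed by TGFA (35.7 ± 0.294). ERBB2 (19.4 ± 1.10) and EGFR (16.3 ± 5.32) came next and overlapped each other, and EREG (6.94 ± 1.26) and HBEGF (1.84 ± 0.229) were lower. BTC (0.1005 ± 0.00234) and ERBB3 (0.0951 ± 0.0116) overlapped at the bottom. AREG, which is left out of this order since its reads may be undercounted, stood at 0.172 ± 0.0571. In K1 the order was EGFR (18.0 ± 0.621), ERBB2 (16.2 ± 0.705), HBEGF (14.97 ± 0.00639), ERRFI1 (10.5 ± 0.480), TGFA (6.08 ± 0.348), EREG (2.12 ± 0.362), BTC (0.325 ± 0.101) and ERBB3 (0.0290 ± 0.0267), with no overlap between neighbours, and AREG stood at 0.0564 ± 0.0180. TGFA thus led the ligands in TPC1 and HBEGF in K1.

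**Figure D1:**
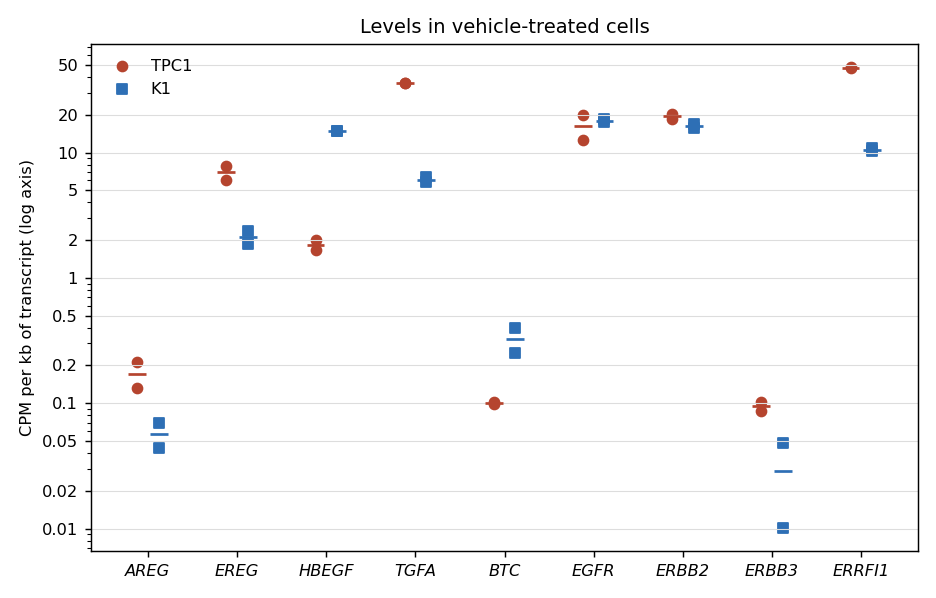
CPM per kb of transcript (log axis) of the 9 genes in the 2 vehicle-treated libraries of TPC1 (red circles) and of K1 (blue squares), with bars at the mean. EGFR and ERBB2 lie close together in the 2 lines, HBEGF and BTC are higher in K1, and EREG, TGFA, ERBB3 and ERRFI1 are higher in TPC1.

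The difference between the untreated lines was tested with edgeR's quasi-likelihood test in 1 fit of all 16 libraries, with Benjamini-Hochberg adjustment over 16738 genes. A gene is called changed where its adjusted p was under 0.05 and its fold change above 1.5, here and below. Of the 8 genes, 6 were called, 2 higher and 4 lower in K1, where 46.2% of all genes tested were called. HBEGF was 7.97-fold higher in K1 (log2 fold change 2.99 ± 0.123 SE, edgeR adjusted p = 1.8e-12), and BTC was 3.19-fold higher (1.67 ± 0.355, edgeR adjusted p = 0.00054). ERRFI1 (−2.18 ± 0.0895), TGFA (−2.56 ± 0.109) and EREG (−1.71 ± 0.140) were lower in K1, with edgeR adjusted p of 1.9e-12, 2.8e-12 and 1.4e-08. ERBB3 was also lower (−1.71 ± 0.530, edgeR adjusted p = 0.0093), on 2 and 10 counts in K1 against 18 and 42 in TPC1. Its call was lost without K1 DMSO library 1 (−1.01) or without TPC1 DMSO library 3 (−1.52). ERBB2 differed by less than the fold threshold (−0.26 ± 0.0743, edgeR adjusted p = 0.0053), and for EGFR the difference was 0.15 ± 0.182 (edgeR adjusted p = 0.49).

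AREG, a ligand of EGFR, had the widest range of the 9 genes over the TPC1 libraries. Its counts were 6 and 19 with DMSO, 39 and 76 with nutlin, 4 and 11 with GSK2830371 and 205 and 350 with the combination. In CPM this was 0.163 and 0.262 with DMSO, 1.27 and 1.17 with nutlin, 0.127 and 0.144 with GSK2830371, and 5.56 and 5.57 with the combination. Both combination libraries stood above both nutlin libraries, which stood above the other 4, and the highest library was 44-fold above the lowest. The fitted log2 differences from DMSO were 2.44 ± 0.264 (SE) for nutlin, −0.75 ± 0.376 for GSK2830371 and 4.66 ± 0.234 for the combination, and the combination stood 2.22 ± 0.188 above nutlin. The interaction, which is how far the combination lies above the sum of the single-drug effects on the log2 scale, was 2.97 ± 0.423, a 7.83-fold excess. Since these values chose the gene, no test goes with them. Over the alternative analyses and left-out libraries the interaction ran from 2.48 to 3.19, the lowest without TPC1 DMSO library 3. In K1, AREG was barely detected, with 3 and 2 counts under DMSO, 5 and 3 under nutlin, 1 and 3 under GSK2830371 and 7 and 1 under the combination. In CPM the nutlin libraries (0.0914 and 0.173) lay above those of DMSO (0.0538 and 0.0853), and the other K1 groups overlapped. No K1 comparison of AREG was called (edgeR adjusted p from 0.52 to 1), and differences of a few reads are not detectable at this depth.

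**Figure D2:**
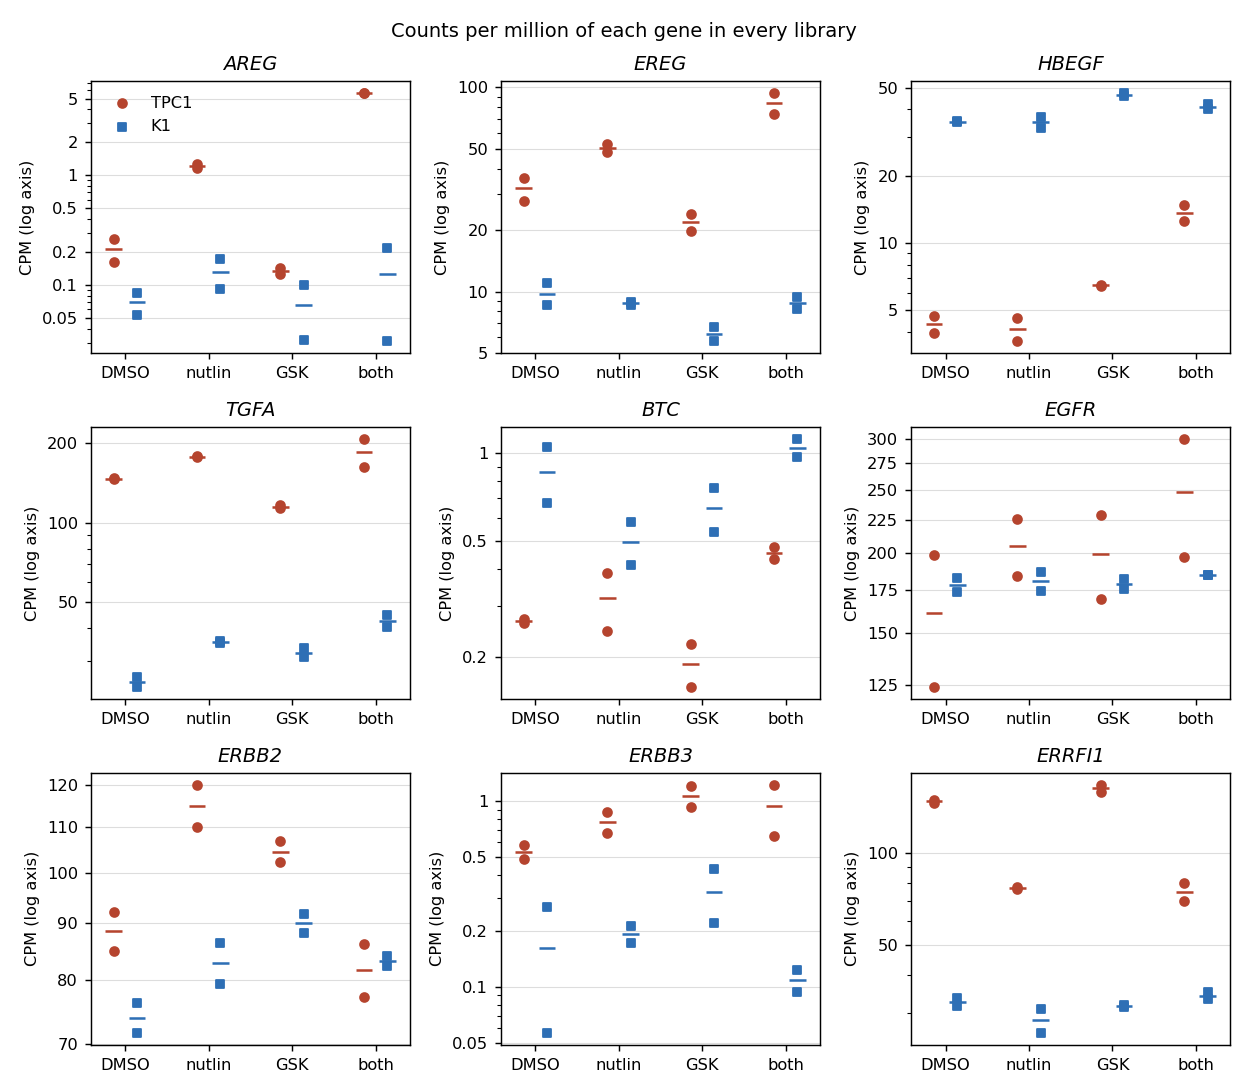
CPM of each of the 9 genes in every library (log axis, separate scale for each gene) by treatment, with DMSO for the vehicle and both for the combination. Red circles are TPC1, blue squares are K1, and bars are means of 2 libraries. In TPC1, AREG reached 5.56 and 5.57 CPM under the combination, and EREG and HBEGF were also highest there, while ERRFI1 was lower in the 4 libraries with nutlin.

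EREG, which binds EGFR and ERBB4, followed the same order of treatment means in TPC1 as AREG, TGFA and BTC, with smaller steps than AREG. It stood at 36.2 and 27.9 CPM under DMSO, 52.8 and 48.4 under nutlin, 24.0 and 19.8 under GSK2830371 and 93.4 and 74.2 under the combination. No 2 of these 4 groups overlapped. EREG rose 1.62-fold with nutlin (0.70 ± 0.150, edgeR adjusted p = 0.0034) and 2.71-fold with the combination (1.44 ± 0.151, edgeR adjusted p = 2.9e-05). The combination also stood 1.68-fold above nutlin (0.75 ± 0.148, edgeR adjusted p = 0.0065), and the interaction was 1.34 ± 0.212 (edgeR adjusted p = 0.0074). The nutlin call was lost without TPC1 DMSO library 3 (0.54), and the call of the combination against nutlin without TPC1 nutlin library 3 (0.68). GSK2830371 alone gave −0.60 ± 0.152 in TPC1, which missed the threshold (edgeR adjusted p = 0.069). It was called by DESeq2 (−0.61), once trends with GC content and length had been removed (−0.67) and with no filter on low counts (−0.60). It was also called with the library number as a block in the fit (−0.59).

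In K1, EREG was lowest under GSK2830371, with 5.74 and 6.71 CPM against 10.97 and 8.61 under DMSO, 8.86 and 8.65 with nutlin, and 8.22 and 9.40 with both drugs. The fall with GSK2830371 was 0.65 on the log2 scale (SE 0.133, edgeR adjusted p = 0.0047), the only drop among the 8 genes that was called in a drug comparison in K1. It was not called once trends with GC content and length had been removed (−0.35), without K1 DMSO library 1 (−0.46) or without K1 GSK2830371 library 1 (−0.54). Under nutlin (−0.15 ± 0.128) and the combination (−0.18 ± 0.127) the K1 libraries overlapped those of DMSO. The response of EREG differed between the lines by −0.88 ± 0.200 (K1 minus TPC1) for nutlin (edgeR adjusted p = 0.0028) and by −1.65 ± 0.199 for the combination against DMSO (edgeR adjusted p = 6.3e-06). For GSK2830371 the difference was −0.04 ± 0.206 (edgeR adjusted p = 0.97). The K1 interaction of EREG had the same sign as in TPC1 and was not called (0.61 ± 0.187, edgeR adjusted p = 0.061). It was called with no filter on low counts (0.61), and ran from 0.43 to 0.78 with single libraries left out. The interactions differed between the lines by −0.73 ± 0.288 (edgeR adjusted p = 0.18). That difference was called after the GC content and length correction (−1.13), with no filter (−0.72) and with the library number as a block (−0.71).

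HBEGF, the heparin-binding ligand of EGFR and ERBB4, had its lowest TPC1 mean under nutlin and its highest under the combination. It stood at 3.96 and 4.72 CPM under DMSO, 3.64 and 4.59 under nutlin, 6.49 and 6.46 under GSK2830371 and 12.6 and 14.8 under the combination. The nutlin and DMSO libraries overlapped, the GSK2830371 libraries lay above them and the combination libraries above all. Nutlin gave −0.04 ± 0.161 and GSK2830371 gave 0.51 ± 0.156, neither past the threshold (edgeR adjusted p = 0.86 and 0.11). The combination raised HBEGF 3.25-fold over DMSO (1.70 ± 0.152, edgeR adjusted p = 1.0e-05), 3.33-fold over nutlin (1.74 ± 0.155, edgeR adjusted p = 0.00013) and 2.28-fold over GSK2830371 (1.19 ± 0.149, edgeR adjusted p = 0.00012). The interaction was 1.22 ± 0.219 (edgeR adjusted p = 0.013). That call was lost without TPC1 GSK2830371 library 1 or 3 (1.22 in both cases) and without TPC1 nutlin library 1 (1.09).

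K1 cells held more HBEGF in every group than any TPC1 library, and its range was narrow. The values were 35.3 and 35.3 CPM under DMSO, 37.1 and 32.9 under nutlin, 46.1 and 47.2 under GSK2830371 and 42.5 and 40.0 under the combination. The GSK2830371 libraries were the highest, by 0.41 ± 0.0684 over DMSO (edgeR adjusted p = 0.0015), which is under the fold threshold. The combination gave 0.19 ± 0.0687 over DMSO and an interaction of −0.22 ± 0.0974 (edgeR adjusted p = 0.037 and 0.20). The response to the combination differed between the lines by −1.53 ± 0.163 (K1 minus TPC1, edgeR adjusted p = 1.8e-06), and the interaction differed by −1.43 ± 0.236 (edgeR adjusted p = 0.0049).

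TGFA, a ligand of EGFR and the most abundant one in TPC1, moved little there. Its TPC1 libraries gave 146 and 148 CPM under DMSO, 177 and 179 under nutlin, 117 and 113 under GSK2830371 and 162 and 207 under the combination. The GSK2830371 libraries were the lowest, and those of the combination spanned the nutlin values. Differences from DMSO were under 1.5-fold: 0.31 ± 0.112 for nutlin, −0.41 ± 0.112 for GSK2830371 and 0.38 ± 0.112 for the combination (edgeR adjusted p = 0.041, 0.086 and 0.014). The combination lay 1.73-fold above GSK2830371 (0.79 ± 0.113, edgeR adjusted p = 0.00027), a call lost without TPC1 combination library 3 (0.58).

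In K1, TGFA was higher under each drug. The libraries gave 24.0 and 26.0 CPM under DMSO, 35.7 and 35.2 under nutlin, 33.5 and 31.1 under GSK2830371 and 44.9 and 40.4 under the combination, with no overlap among the 4 groups. The combination raised TGFA 1.67-fold (0.74 ± 0.0770, edgeR adjusted p = 4.1e-06). Nutlin (0.51 ± 0.0779) and GSK2830371 (0.38 ± 0.0783) stayed under the fold threshold with edgeR adjusted p of 0.00021 and 0.0049. The interaction was −0.15 ± 0.109 (edgeR adjusted p = 0.43). The GSK2830371 values of −0.41 in TPC1 and 0.38 in K1 differed by 0.78 ± 0.147 (K1 minus TPC1, edgeR adjusted p = 0.012). That call was lost without K1 DMSO library 1 (0.73), K1 GSK2830371 library 1 (0.73) or TPC1 GSK2830371 library 1 (0.78).

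BTC, betacellulin, was near the limit of detection, with 5 to 30 counts per TPC1 library and 12 to 37 per K1 library. In TPC1 it stood at 0.271 and 0.262 CPM under DMSO, 0.390 and 0.246 under nutlin, 0.158 and 0.222 under GSK2830371 and 0.434 and 0.477 under the combination. The combination libraries were the highest, and the 1 comparison called was that against GSK2830371 (1.29 ± 0.402, edgeR adjusted p = 0.021). It was not called by DESeq2 (1.35), or without TPC1 GSK2830371 library 1 (1.14) or 3 (1.62) or TPC1 combination library 3 (1.19). In K1 the values were 1.05 and 0.673 under DMSO, 0.415 and 0.579 under nutlin, 0.536 and 0.761 under GSK2830371 and 0.973 and 1.12 under the combination, and no drug comparison was called. The interaction in K1 was 1.41 ± 0.477 (edgeR adjusted p = 0.088) and was called with no filter on low counts (1.41). The combination against nutlin in K1 gave 1.01 ± 0.343 (edgeR adjusted p = 0.074). It was called with no filter (1.01) and in a fit of the compared groups only (1.01).

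The 5 ligands summed to 44.8 ± 0.686 CPM per kb in TPC1 under DMSO, 57.1 ± 0.117 under nutlin, 35.6 ± 1.17 under GSK2830371 and 73.6 ± 5.48 under the combination (SD, n = 2), with no overlap between groups. TGFA made up 79.8 ± 1.88% of this sum under DMSO and 60.9 ± 5.97% under the combination. EREG went from 15.5 ± 2.58% to 24.9 ± 5.85%, HBEGF from 4.11 ± 0.574% to 7.88 ± 0.334%, and AREG, which may be undercounted, from 0.385 ± 0.133% to 6.15 ± 0.450%. In K1 the sum ran from 23.6 ± 0.127 under DMSO to 30.24 ± 1.399 CPM per kb under the combination, and HBEGF made up between 57.8% and 67.6% of it in the group means. These sums and shares are a description, since AREG enters them.

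**Figure D3:**
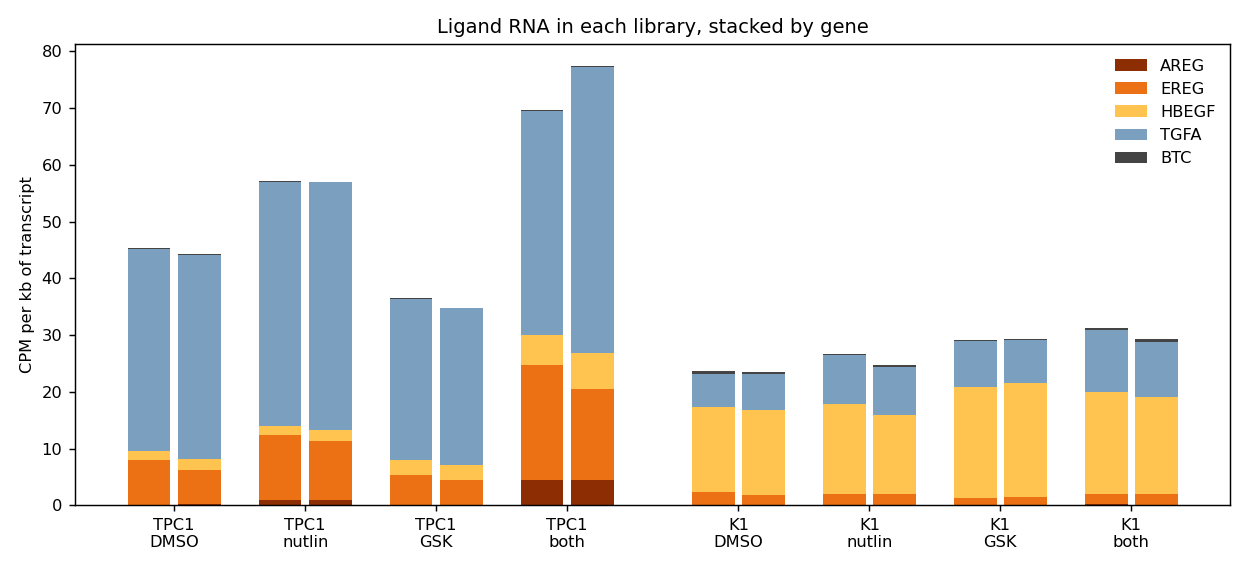
CPM per kb of transcript of the 5 ligands, stacked, in each of the 16 libraries (2 bars for each line and treatment). In TPC1 the sum rises from 44.3 and 45.3 under DMSO to 69.7 and 77.4 under the combination, with AREG (a possible undercount) becoming visible at the base, whereas in K1 HBEGF is the largest segment in every bar.

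EGFR, the receptor shared by these ligands, varied widely between the 2 libraries of each TPC1 group. It stood at 199 and 124 CPM under DMSO, 225 and 184 under nutlin, 229 and 169 under GSK2830371 and 299 and 197 under the combination. The library numbered 3 was the lower in each treatment, and DMSO library 1 lay above combination library 3. Between libraries of the same number, which carry no stated pairing, the combination lay 1.51-fold (number 1) and 1.59-fold (number 3) above DMSO. The combination gave 0.67 ± 0.250 over DMSO, which passed both thresholds (1.59-fold, edgeR adjusted p = 0.040). This call was lost with DESeq2 (0.69), with scaling by library size alone (0.62), without TPC1 DMSO library 3 (0.39) and without TPC1 combination library 1 (0.36). The single drugs gave 0.38 ± 0.250 (nutlin) and 0.25 ± 0.250 (GSK2830371), neither called, although nutlin was without TPC1 DMSO library 1 (0.75). In K1, EGFR ran from 174 to 187 CPM over all 8 libraries and the combination libraries (184.7 and 184.7) lay above those of DMSO and GSK2830371 and within the range of nutlin. The K1 combination difference was 0.02 ± 0.0523 (edgeR adjusted p = 0.79).

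ERBB2, the co-receptor without a ligand, stood in TPC1 at 92.1 and 84.99 CPM under DMSO, 120 and 110 under nutlin, 107 and 102 under GSK2830371 and 86.2 and 77.2 under the combination. Each single drug thus gave higher libraries than DMSO, and the combination overlapped DMSO. Nutlin gave 0.41 ± 0.0841 and the combination against nutlin −0.47 ± 0.0842, both under the fold threshold (edgeR adjusted p = 0.0026 and 0.0039). The interaction was called and negative (−0.66 ± 0.119, edgeR adjusted p = 0.013). It was not called after the GC content and length correction (−0.56), nor without TPC1 GSK2830371 library 1 (−0.64) or 3 (−0.69) or TPC1 nutlin library 1 (−0.60). In K1, ERBB2 gave 76.3 and 71.7 CPM under DMSO, 79.4 and 86.5 under nutlin, 91.9 and 88.2 under GSK2830371 and 82.4 and 84.0 under the combination. The K1 interaction had the same sign (−0.33 ± 0.0878, edgeR adjusted p = 0.036) and was under the fold threshold, and the interactions differed between the lines by 0.34 ± 0.148 (edgeR adjusted p = 0.23).

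ERBB3, the neuregulin receptor, had 18 to 71 counts per TPC1 library and 2 to 13 per K1 library. In TPC1 it gave 0.488 and 0.580 CPM under DMSO, 0.877 and 0.676 under nutlin, 1.20 and 0.926 under GSK2830371 and 1.22 and 0.652 under the combination. All 6 treated libraries lay above both DMSO libraries, but no comparison was called, with 0.89 ± 0.349 for GSK2830371 (edgeR adjusted p = 0.20) and 0.78 ± 0.355 for the combination (edgeR adjusted p = 0.081). The combination was called without TPC1 combination library 3 (1.20) and with the library number as a block in the fit (0.72, edgeR adjusted p = 0.0497). In K1 no drug comparison of ERBB3 was called, and at 2 to 13 counts a library small differences are not detectable.

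ERRFI1, the inhibitor of the receptors, fell with nutlin in TPC1 whether or not GSK2830371 was present. It stood at 149 and 146 CPM under DMSO, 167 and 159 under GSK2830371, 76.1 and 77.8 with nutlin, and 69.8 and 79.8 with both drugs. The 4 libraries with nutlin lay below the 4 without it. The log2 fold change was −0.91 ± 0.0867 for nutlin (edgeR adjusted p = 2.3e-05) and −0.92 ± 0.0866 for the combination (edgeR adjusted p = 1.4e-05). The combination differed from nutlin by −0.02 ± 0.0865, and the interaction was −0.11 ± 0.122 (edgeR adjusted p = 0.90 and 0.63). In K1 the values were 31.6 and 33.7 CPM under DMSO, 30.9 and 26.0 under nutlin, 32.0 and 31.4 under GSK2830371 and 35.2 and 33.3 under the combination, with no call. The responses differed between the lines by 0.68 ± 0.124 for nutlin and 0.93 ± 0.123 for the combination (K1 minus TPC1, edgeR adjusted p = 0.00052 and 1.7e-05). The nutlin difference was not called without K1 nutlin library 1 (0.56).

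Set against all genes, the 8 did not stand out in their number of calls under nutlin in TPC1. There 2 of 8 were called (EREG higher, ERRFI1 lower), where 35.5% of 15273 genes were. For GSK2830371, edgeR called 0 of 8 (4 at an unadjusted p under 0.05, and 1, EREG, by DESeq2), where 1.4% of genes were called. For the combination 4 of 8 were called against DMSO (44.2% of genes), 2 of 8 against nutlin (12.1%) and 5 of 8 against GSK2830371 (38.5%). The interaction was called for 3 of 8 (EREG and HBEGF positive, ERBB2 negative), where 6.32% of genes were. The count for the interaction fell to 1 without TPC1 GSK2830371 library 1 or 3 or TPC1 nutlin library 1. The median log2 fold change of the 8 under the combination was 0.73, against 0.00 over all genes. The comparisons with DMSO share the same 2 DMSO libraries in each line, and those against a single drug share the combination libraries.

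**Figure D4:**
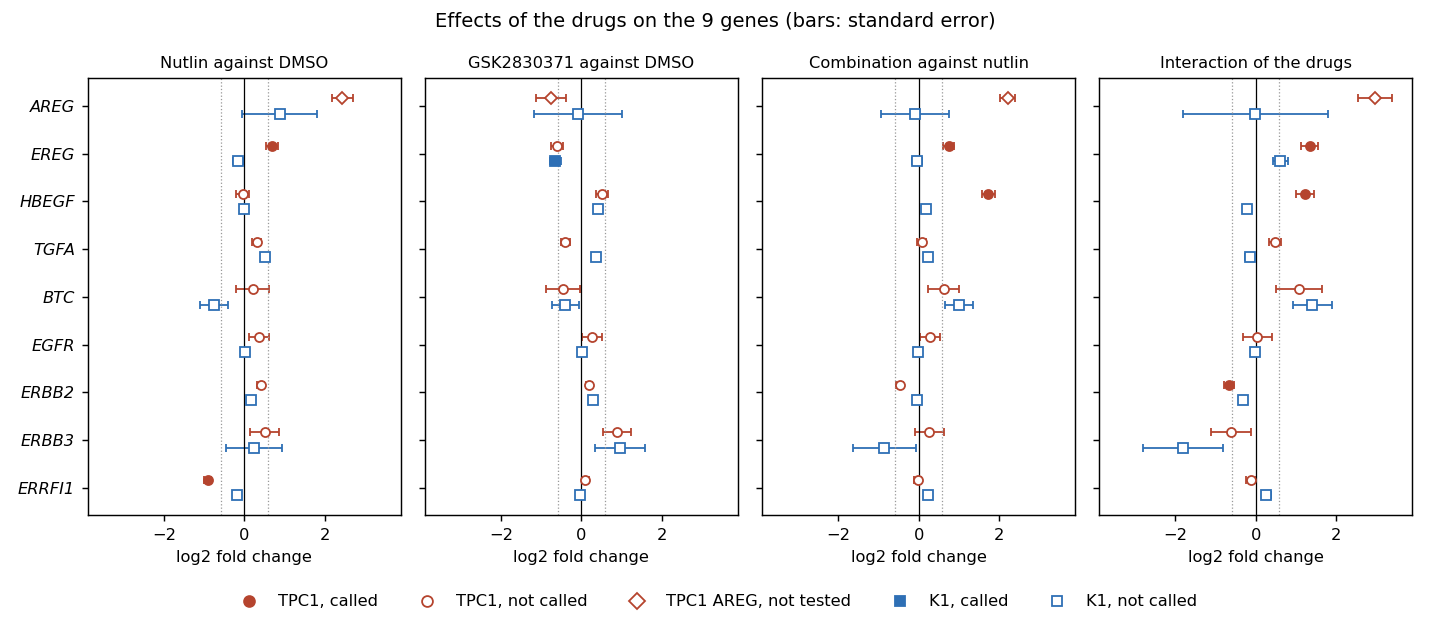
Log2 fold change of each gene (bars, standard error) for nutlin, for GSK2830371, for the combination against nutlin and for the interaction, in TPC1 (red circles) and K1 (blue squares). Filled symbols are called, open symbols are not, and open diamonds are the AREG values of TPC1, which were not tested. Dotted lines mark a fold change of 1.5. In the 2 panels on the right EREG and HBEGF are called in TPC1 and not in K1, where their interactions were 0.61 and −0.22. The difference in interaction between the lines was called for HBEGF and not for EREG (−0.73 ± 0.288, edgeR adjusted p = 0.18).

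In K1 there were fewer calls among the 8 and among all 15900 genes. Nutlin gave 0 of 8 by edgeR and by DESeq2 (4 at an unadjusted p under 0.05), where 9.27% of genes were called. GSK2830371 gave 1 of 8 (EREG, lower; 2.23% of genes) and the combination against DMSO 1 of 8 (TGFA, higher; 15.7%). The combination against nutlin (2.68% of genes), the combination against GSK2830371 (13.1%) and the interaction (2.44%) each gave 0 of 8 by edgeR and by DESeq2, with 4, 5 and 5 genes at an unadjusted p under 0.05.

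The difference of each response between the lines was tested directly. Of the 8 genes, 2 were called for nutlin (EREG and ERRFI1; 19.2% of genes), 1 for GSK2830371 (TGFA; 2.18%) and 4 for the combination against DMSO (EREG, HBEGF, EGFR and ERRFI1; 25.7%). For the combination against nutlin 2 were called (EREG and HBEGF; 5.11%), for the combination against GSK2830371 3 (EREG, HBEGF and ERRFI1; 24.1%) and for the interaction 1 (HBEGF; 3.14%). The differences were negative for EREG, HBEGF and EGFR, whose TPC1 response was the higher, and positive for ERRFI1, which fell in TPC1. The EGFR difference (−0.68 ± 0.257, edgeR adjusted p = 0.045) was lost with DESeq2 (−0.66), with its size factors (−0.66), with edgeR's own filter (−0.66), with scaling by library size alone (−0.57), without any 1 library of K1 (−0.65 to −0.73), and without TPC1 DMSO library 3 (−0.40) or TPC1 combination library 1 (−0.38). The EREG difference for the combination against nutlin (−0.77 ± 0.201, edgeR adjusted p = 0.025) was lost without either K1 nutlin library (−0.77 in both cases), K1 combination library 1 (−0.70) or 2 (−0.86), TPC1 nutlin library 3 (−0.71) or TPC1 combination library 1 (−0.62). CDKN1A itself rose less with nutlin in K1 than in TPC1 (difference −2.48 ± 0.149, edgeR adjusted p = 4.3e-09), and its part in these differences was not tested.

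A list of 39 other genes of the pathway (other ligands and ERBB4, ligand shedding, adaptors at the receptor, receptor restraint and growth factor response genes) was counted in the same fits. In TPC1, 35 of the 39 passed the filter on low counts. Nutlin raised 10 and lowered 9 of the 35, and the combination raised 11 and lowered 9, where 35.5% and 44.2% of all genes were called. The median log2 fold change of the list was −0.01 with nutlin and −0.05 with the combination, against 0.00 over all genes in both comparisons. The combination was called higher than nutlin for 2 and lower for 4 of the 35, where 12.1% of all genes were called. The ligand NRG1, which binds ERBB3 and ERBB4, rose with nutlin (2.28 ± 0.103, edgeR adjusted p = 1.8e-07) and with the combination (2.30 ± 0.103), from 15.2 ± 1.56 CPM under DMSO to 71.9 ± 2.09 and 71.7 ± 6.73 (SD, n = 2). ERBB4 had 0 to 2 counts summed over the 2 libraries of a TPC1 group. EGF was lower under the combination than with nutlin (−0.81 ± 0.259, edgeR adjusted p = 0.048), a call lost with DESeq2 (−0.78), in a fit of the compared groups only (−0.81) and without any 1 TPC1 library (−0.55 to −0.97).

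Among the 5 shedding genes, 3 rose with nutlin in TPC1 (RHBDF1, RHBDF2 and FRMD8), and under the combination ADAM17 rose as well and ADAM10 fell, where 35.5% and 44.2% of all genes were called. ADAM10, ADAM17 and RHBDF1 are named here after their values were seen, as are IER3, EGR1, DUSP4 and ETV5 below. RHBDF2, an inactive rhomboid protein that carries ADAM17 to the surface, rose with nutlin (1.20 ± 0.0815, edgeR adjusted p = 2.4e-06). FRMD8, which stabilizes that complex, rose from 58.98 ± 3.404 CPM to 115 ± 4.09 with nutlin and to 217 ± 10.1 with the combination, and its interaction was called (1.01 ± 0.124, edgeR adjusted p = 0.0027). Among the 11 growth factor response genes, nutlin lowered 7 and raised 3 (DUSP5, DUSP6 and IER3), and the combination lowered 6 and raised 1 (DUSP5), beside the same shares of all genes. The nutlin calls of DUSP6 and IER3 were lost without TPC1 DMSO library 1 (0.54 and 0.48) or TPC1 nutlin library 3 (0.57 and 0.54). Among the falls, the nutlin call of EGR1 was lost without TPC1 DMSO library 1 (−0.53) or TPC1 nutlin library 1 (−0.48). It was also lost after the GC content and length correction (−0.58). The nutlin call of DUSP4 was lost without TPC1 nutlin library 3 (−0.64), and the combination call of ETV5 without TPC1 combination library 3 (−0.51). FOSL1, an AP-1 subunit, fell from 552 ± 21.4 to 224 ± 4.20 CPM with nutlin (−1.27 ± 0.0755, edgeR adjusted p = 1.1e-06) and to 190 ± 4.77 with the combination. SPRY4, a feedback inhibitor, fell by 1.25 on the log2 scale with the combination (SE 0.0962, edgeR adjusted p = 3.7e-06), and the transcription factor ETV4 fell by 1.05 with nutlin (SE 0.101, edgeR adjusted p = 2.2e-05). DUSP5, an ERK phosphatase, stood 0.83 ± 0.0837 higher under the combination than under nutlin (edgeR adjusted p = 0.00023). DUSP6, another ERK phosphatase, stood 0.66 lower there (−0.66 ± 0.0901, edgeR adjusted p = 0.0011, a call lost without TPC1 combination library 1, −0.58) and was the 1 gene of the list with a called negative interaction (−0.86 ± 0.127, edgeR adjusted p = 0.0055). The interaction was called for 2 of the 35 in TPC1 (FRMD8 and DUSP6), where 6.32% of all genes were called. With GSK2830371 alone, edgeR called 0 of the 35 in TPC1 (11 at an unadjusted p under 0.05, and 1 by DESeq2), where 1.4% of all genes were called.

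In K1, 36 of the 39 were tested. Under the combination 2 were called, where 15.7% of all genes were: RHBDF2 rose (0.61 ± 0.0694, edgeR adjusted p = 9.6e-06) and SH3KBP1, an adaptor of receptor uptake, fell (−0.67 ± 0.0485, edgeR adjusted p = 1.1e-07). The RHBDF2 call was lost without K1 DMSO library 1 or K1 combination library 1 (0.55 in both cases). EGR1, an early response gene, stood above its nutlin level under the combination (0.62 ± 0.174, edgeR adjusted p = 0.033) and had a positive interaction (1.02 ± 0.243, edgeR adjusted p = 0.024), the 1 call on the list in each, where 2.68% and 2.44% of all genes were called. The first was lost without either K1 nutlin or either K1 combination library (0.51 to 0.74), and the interaction without K1 DMSO library 2 (0.77), K1 nutlin library 2 (0.90) or K1 combination library 1 (0.94) or 2 (1.09). Nutlin, GSK2830371 and the combination against GSK2830371 gave 0 calls on the list by edgeR and by DESeq2, with 17, 15 and 22 genes at an unadjusted p under 0.05, where 9.27%, 2.23% and 13.1% of all genes were called, and NRG1 stayed between 14.1 and 17.8 CPM in the 4 group means.

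**Figure D5:**
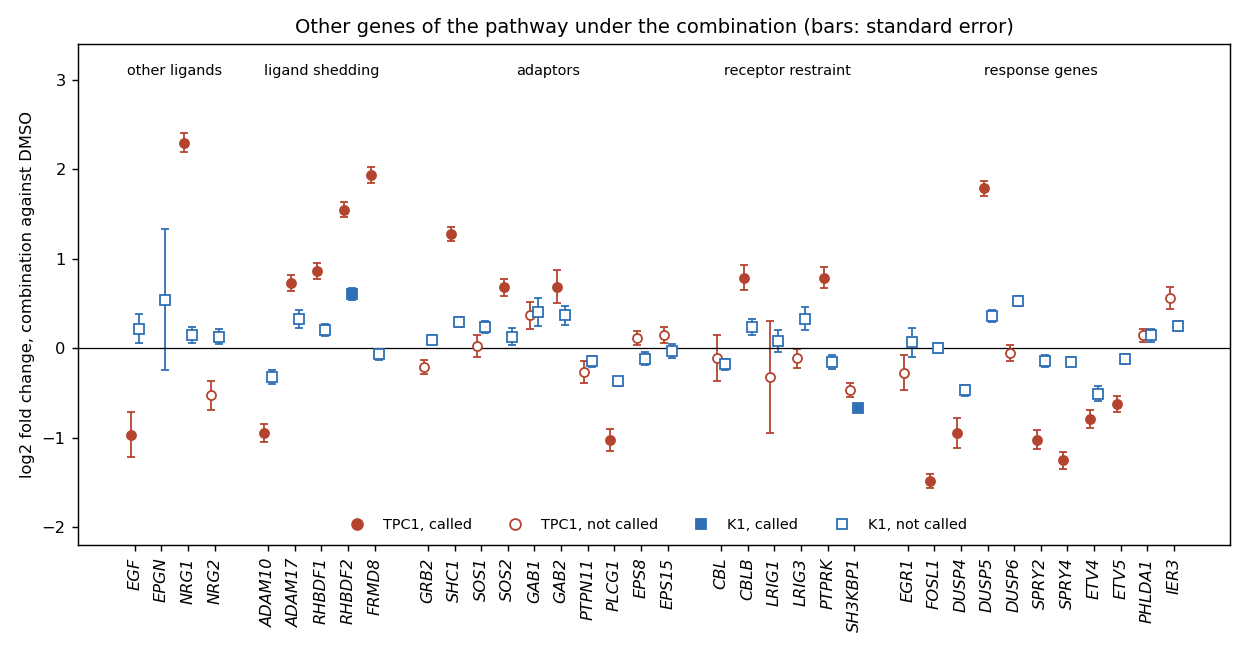
Log2 fold change under the combination against DMSO for the genes of the pathway list that were tested, in 5 groups, for TPC1 (red circles) and K1 (blue squares), with standard errors as bars and called genes filled. In TPC1, NRG1 (2.30), FRMD8 (1.93) and DUSP5 stand highest and FOSL1 (−1.48) and SPRY4 (−1.25) lowest, while in K1 the filled symbols are RHBDF2 (0.61) and SH3KBP1 (−0.67).

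The genes whose pattern over the 8 TPC1 libraries was most like that of AREG, by Pearson correlation of log2(CPM + 0.5) over genes averaging 1 CPM or more in the line, were LCE1F (0.996), C6orf48 (0.995), COL15A1 (0.995), FAM104A (0.994) and LRRC75A-AS1 (0.994). LCE1F had no counts under DMSO or GSK2830371, 2.34 CPM under nutlin and 16.5 CPM under the combination in the group means, and C6orf48 went from 45.1 to 72.0 and 147 CPM under DMSO, nutlin and the combination. The nearest gene was PRDM1 for EREG (0.989), ZFAND1 for HBEGF (0.992), PLAT for TGFA (0.989), TULP4 for EGFR (0.992), F2R for ERBB2 (0.988) and LRRC8C for ERRFI1 (0.998). Among the 9 genes, AREG correlated with EREG at 0.941, BTC at 0.887, TGFA at 0.773, HBEGF at 0.732 and ERRFI1 at −0.878. EREG correlated with BTC at 0.88, TGFA at 0.836, HBEGF at 0.52 and ERRFI1 at −0.913, and TGFA with ERRFI1 at −0.844. Other pairs among the 9 genes are not given. In K1 the gene nearest to AREG was ZNF192P1 (0.915), with AREG at 1 to 7 counts. These values describe 8 libraries of 1 line that share 4 treatments, and carry no test.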

How the data were processed

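The authors aligned single-end reads of 150 bases from stranded poly(A) libraries to GRCh37 with TopHat2 2.0.13, removed alignments of mapping quality under 10 and counted reads per gene with HTSeq 0.6.1 on the reverse strand, and the deposited values are these raw counts for 25369 genes in 16 libraries. Of the columns, 12 matched 1 sample each and 4 (TPC1, numbered 3) matched a group only, and 0 were left unused. CPM scale each count to its library total, with no further factor, and CPM per kb divide by the length of the main transcript.

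Genes above 0.1 CPM in at least 2 libraries were tested with edgeR 4.0.16 (TMM scaling, quasi-likelihood F test) on R 4.3.3, in 1 fit of 8 libraries for each line (15273 genes in TPC1, 15900 in K1) and 1 fit of all 16 for differences between the lines. P-values were adjusted by Benjamini-Hochberg over all genes tested, and the scripts were tested on simulated data. Standard errors are the size of the log2 fold change divided by the square root of the F statistic. Each line left 4 residual degrees of freedom, to which edgeR adds prior degrees of freedom estimated from all genes. The p-values therefore do not follow from the standard errors with 4 degrees of freedom alone. The alternatives were DESeq2 1.42.0, other scalings and filters, a GC content and length correction, a fit of the compared groups only, a replicate block and leaving out each library.

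The genes and lists were chosen with earlier results of these data known. The text names the 9 genes throughout and, from the list of 39, at most the 2 largest called rises and 2 largest called falls in each line and comparison. Further genes of the list are named where they are said to be picked after their values were seen. By likeness it names the 5 genes nearest to AREG in TPC1 and the 1 nearest to it in K1. For the other genes it names the nearest in TPC1, except for BTC and ERBB3. The annotation the authors counted on was not analysed here. The result of 1 marker gene is not reported here.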

Additional observations from a re-analysis of the deposited data

Results flagged for a closer look

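The response of 13 gene and comparison pairs differed between the lines in edgeR's test of the difference itself (adjusted p under 0.05 and more than 1.5-fold), given as K1 minus TPC1 on the log2 scale. For nutlin these were EREG (−0.88) and ERRFI1 (0.68), and for GSK2830371 TGFA (0.78). For the combination against DMSO they were EREG (−1.65), HBEGF (−1.53), EGFR (−0.68) and ERRFI1 (0.93). For the combination against nutlin they were EREG (−0.77) and HBEGF (−1.53), and for the combination against GSK2830371 EREG (−1.61), HBEGF (−1.44) and ERRFI1 (1.06). For the interaction it was HBEGF (−1.43). The medium differed between the lines and cannot be told apart from the line. Several of these pairs share libraries and are not independent of each other.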

How the results depend on the processing

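Of 3127 single-gene values recomputed under the alternatives, 3045 stayed the same, 50 lost the call, 28 gained it and 4 moved. Only a value called in the main fit could lose its call, and most were not called there. The 50 of 3127 is therefore not the rate of loss among called values. For a tested value, the same means called or not called as before, and uncalled values could change sign. An untested AREG value in TPC1 counted as moved where it shifted by more than the standard error of the main fit. These 4 were AREG in TPC1 without DMSO library 3 (2.93 for nutlin, −0.26 for GSK2830371, 5.15 for the combination and 2.48 for the interaction). Of the called values, 0 changed sign. The number of the 8 genes called changed by more than 1.5 times as follows, and the cause was not tested. For GSK2830371 in TPC1 it was 1 instead of 0 with DESeq2, the GC content and length correction, no filter, or the replicate block with or without that correction. For GSK2830371 in K1 it was 0 instead of 1 with the GC content and length correction, with or without the block. In K1, the combination against nutlin gave 1 with the compared groups only or no filter, and the interaction gave 2 with no filter. For the difference between lines, the combination against nutlin gave 1 with library size only, and the interaction gave 2 with DESeq2 or the GC content and length correction and 3 with no filter, the block, or the block with the correction. Smaller shifts were 3 instead of 4 (DESeq2, library size only) or 5 (block, with or without the correction) for the combination against DMSO in TPC1, 4 instead of 5 (DESeq2) against GSK2830371, 2 instead of 3 (GC content and length correction, with or without the block) for the TPC1 interaction, and 3 instead of 4 (DESeq2, its size factors, filterByExpr, library size only) for the combination against DMSO between the lines.

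Leaving out each library in turn gave 1 to 3 calls for nutlin, 3 to 5 for the combination against DMSO, 1 to 2 for the combination against nutlin, 3 to 5 for the combination against GSK2830371 and 1 to 4 for the interaction in TPC1. In K1 it gave 0 to 1 for GSK2830371 and 0 to 1 for the interaction. For K1 minus TPC1 it gave 1 to 3 for nutlin, 0 to 1 for GSK2830371, 3 to 4 for the combination against DMSO, 1 to 2 against nutlin, 3 to 4 against GSK2830371 and 1 to 2 for the interaction, and for the untreated lines 5 to 6.

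The replicate numbers give no stated pairing. With the number as a block, 160 of 164 single-gene values kept their call and 4 gained it (EREG for GSK2830371 in TPC1, ERBB3 for the combination in TPC1, and EREG and TGFA for the difference in interaction). The difference between the 2 libraries of a treatment correlated across treatments at 0.496 to 0.696 in TPC1 (12303 genes) and at −0.357 to 0.376 in K1 (12546 genes), over 6 pairs of treatments each.

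With 2 libraries a group and 4 residual degrees of freedom in a line, small changes cannot be seen, and AREG in K1, BTC and ERBB3 rest on few counts. The correction for GC content and length used the 88.8% to 89.4% of tested genes with both values.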
